A study of Mus musculus with 18 samples.

Results

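Replication-dependent histone genes encode the bulk of the histones that package new DNA, and mouse symbols of this kind begin with Hist1h, Hist2h, Hist3h or Hist4h. All 71 symbols of this form among the 34620 genes of the count files were taken, 56 named Hist1, 11 named Hist2, 3 named Hist3 and 1 named Hist4. By class they comprised 6 linker histone H1 genes, 20 H2A genes, 19 H2B genes, 13 H3 genes and 13 H4 genes. Their reads were counted by RNA-Seq of the microdissected ventral dentate gyrus (vDG) of adult Swiss Webster male mice aged 8 to 12 weeks, in 6 libraries. The study asked whether effects of a mother's serotonin 1A receptor (5HT1A) deficiency reach later generations. WT males had WT mothers and grandmothers and came from a separate WT line bred in parallel (n = 2). F1 males were WT sons of 5HT1A-/+ mothers and 5HT1A-/+ fathers (n = 2). F2 males were sons of F1 females and WT males, with 5HT1A-/+ maternal grandparents (n = 2). Maternal and paternal ancestry therefore cannot be told apart in these F1 libraries. All 3 groups were thus WT at the receptor themselves and differed in their ancestry. The receptor deletion was made in 129SvEv and backcrossed to Swiss Webster. Offspring of at least 3 litters were used, but how many animals each library holds is not stated, so p-values measure only the spread between these libraries.

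Core histones H2A, H2B, H3 and H4 form the nucleosome, and H1 binds the linker DNA between nucleosomes. Transcripts of the replication-dependent genes accumulate in S phase and are the best known animal mRNAs that end without a poly(A) tail: a short stem-loop after the stop codon is bound by the stem-loop binding protein Slbp, and the U7 snRNP directs cleavage just downstream. Some of these genes also make longer polyadenylated transcripts, known from cells that have left the cell cycle, as mature granule neurons have. The libraries were made from poly(A) RNA. A low value here is therefore a level in poly(A) RNA and not the amount of histone mRNA in the tissue.

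The 3′ ends were read from the NCBIM37 (mm9) genome to show which members carry the stem-loop. It was searched for as 16 bases starting with GG in which the first 6 pair with the last 6, around a loop of 4 bases, within 200 bases after the stop codon on the gene's strand. The sixth base and the first loop base had to be T. Of the 67 members with an annotated coding sequence, 63 held such a run. Over all 22756 protein-coding genes, these 63 included, 77 (0.338%) did. The commonest form, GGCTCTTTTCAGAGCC, was found in 39 members, followed by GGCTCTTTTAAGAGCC in 9 and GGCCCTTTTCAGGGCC in 8, and the G-C-rich stem of the last was found in H4 genes. The following lines give it, in capitals with 5 flanking bases on each side and 5′ to 3′, for the 5 stem-loop members with the highest counts and for 3 H4 genes that show the other stem.
Hist3h2a (chr11:58768669-58768694, + strand): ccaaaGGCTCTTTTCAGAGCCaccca
Hist1h2bc (chr13:23776511-23776536, + strand): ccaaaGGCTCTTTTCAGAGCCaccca
Hist3h2ba (chr11:58762846-58762871, + strand): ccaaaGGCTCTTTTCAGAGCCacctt
Hist1h1c (chr13:23831376-23831401, + strand): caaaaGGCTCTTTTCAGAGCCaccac
Hist1h2be (chr13:23677395-23677420, - strand): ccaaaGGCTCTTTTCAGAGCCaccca
Hist1h4i (chr13:22132830-22132855, - strand): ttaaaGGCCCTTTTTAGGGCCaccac
Hist2h4 (chr3:96066857-96066882, - strand): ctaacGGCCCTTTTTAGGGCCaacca
Hist1h4h (chr13:23623322-23623347, + strand): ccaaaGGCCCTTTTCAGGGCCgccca

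No run of this form was found for Hist2h2be, Hist2h2bb, Hist1h2al and Hist1h2an, which says only that these letters are not in the window. Outside the family 14 genes matched, among them H2afx, the variant histone that is phosphorylated at DNA breaks.

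Few members gave reads. Together the 71 genes had 2899 to 4035 counts per library, 0.0108% to 0.0124% of the 26358165 to 33727936 counts on all genes. The 7 genes Hist3h2a, Hist1h2bc, Hist3h2ba, Hist1h1c, Hist2h2be, Hist1h2be and Hist2h2bb, each with a mean of at least 100 counts, held 87.7% of the members' counts, and 86.2% to 89.5% of the members' normalised level in single libraries. Another 11 members averaged 10 to 100 counts, and 53 averaged under 10, of which 14 were at 0 in every library. The level corresponding to 3 counts, the limit that a count of 0 allows for counting error alone, was 0.0882 to 0.112 CPM (counts scaled by library size).

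Most reads fell on members whose annotated sequence reaches well past the stem-loop. Of the 67 members with a coding sequence, 22 had at least 100 exonic bases after the stem-loop, or after the stop codon where no stem-loop was found. These 22 held 94.1% of the members' counts and had a median of 22.6 mean counts, compared with 4.4% and a median of 1.17 for the other 45. All 7 members with at least 100 mean counts belonged to the 22. So did Hist1h1d and Hist1h2ac, with 3050 and 2010 bases after the stem-loop, which averaged 14.5 and 33 counts. The annotated exons went on for 1487 bases after the stem-loop in Hist3h2a, 839 in Hist1h1c, 1789 in Hist1h2be and 166 in Hist3h2ba, and for 2192 and 1117 bases after the stop codon in Hist2h2be and Hist2h2bb. Longer exons also offer more positions for reads, and gene models are themselves drawn from sequenced cDNAs, so the 2 measures are not independent. Per 1000 exon windows of 50 bases found once in the genome, the medians of the 2 sets were 0.849 and 0.238 CPM. These medians cover the 20 and 37 members with at least 50 such windows.

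Hist1h2bc, an H2B gene at chr13:23776068-23784357 on the + strand, was annotated differently. Its first exon ended at position 23776490, ahead of the stem-loop, and joined a second exon at chr13:23784045-23784357, so that the annotated transcript omits the stem-loop printed above. Its last 60 bases hold AATAAA, the polyadenylation signal. AATAAA or ATTAAA was found in the last 60 bases of 17 members, which held 89.0% of the members' counts, and in 71.0% of protein-coding genes.

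Members also differed in how much of their sequence is their own, because reads that fit several places were not counted. Of the 50-base windows of their exons, the length of the reads, 0% to 100% occurred once in the genome. The 6 members with no unique window, Hist1h2ao, Hist1h2ap, Hist1h2bq, Hist1h2br, Hist2h2aa1 and Hist2h2aa2, had 2 counts in all libraries together. A value at 0 for such a gene says nothing of its level. The 16 members with under 25% unique windows held 0.1% of the members' counts, and no member among them passed the filter on low counts. Unique sequence alone did not go with reads: the linker histone genes Hist1h1a and Hist1h1b were 100% unique and averaged 2.17 counts each. The exon of Hist1h1a ended 7 bases after the stem-loop, and that of Hist1h1b ended ahead of it. Hist1h1t, also 100% unique, had 179 exonic bases after its stem-loop and averaged 0.83 counts.

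**Figure D1:**
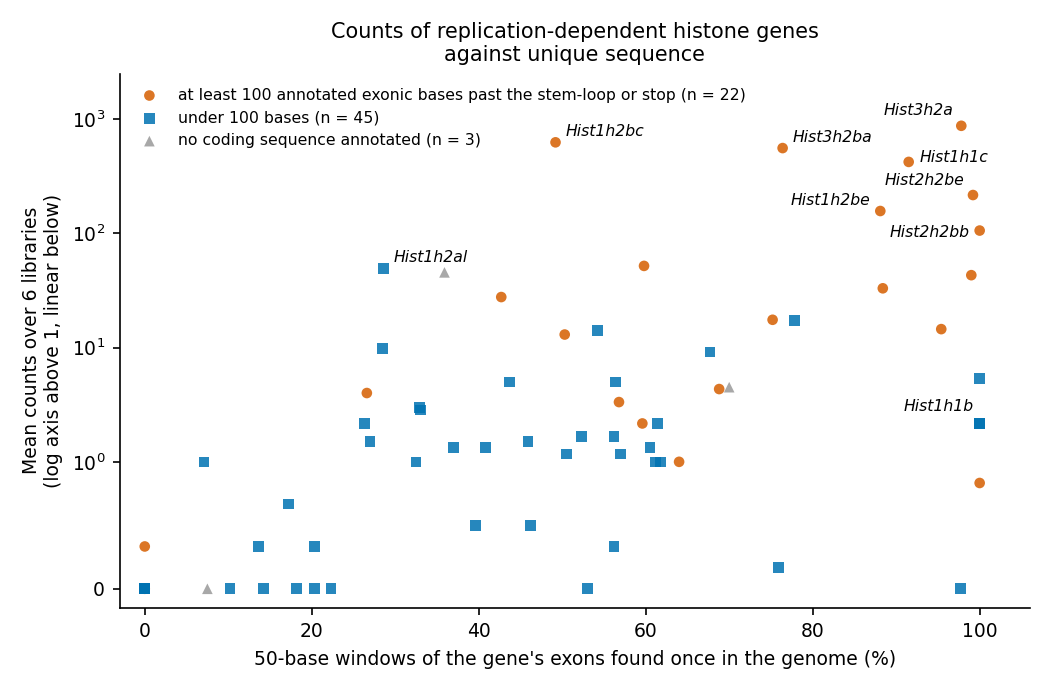
Mean counts over the 6 libraries (vertical, log axis above 1 and linear below) against the share of 50-base windows found once in the genome (horizontal, percent). Each point is 1 of the 70 members with a gene model, and colour gives the annotated exonic bases past the stem-loop or stop codon. All points above 100 counts have at least 100 such bases and 49.2% or more unique windows.

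Per 1000 unique windows, a rough scale for comparing different genes, the mean over the libraries was highest for Hist1h2bc at 67.0 CPM, followed by Hist3h2ba at 43.5 CPM. Hist1h2al (17.7 CPM) and Hist3h2a (15.5 CPM) came next in this order. The 6 libraries overlapped between these neighbours, with 7.12 to 31.3 CPM for Hist1h2al and 13.1 to 17.9 CPM for Hist3h2a. Hist1h1c stood at 10.48 CPM per 1000 windows, and the rest of the 20 tested members lay between 0.135 CPM for Hist1h1d and 5.94 CPM for Hist1h4i. Hist1h2bc and Hist1h1d were thus at the ends of the order. The annotated transcript of Hist1h2bc omits its stem-loop, while the exon of Hist1h1d went on for 3050 bases after its own. Hist1h2ac, with 2010 such bases, stood at 0.526 CPM. Windows across a splice junction were not counted, and a base difference between Swiss Webster and the reference genome could make a window more or less unique than computed. Windows in exons shared with another gene, as in Hist3h2a, were counted, though reads there may not be assigned. The annotation release behind the read counts is not given, so this order is approximate.

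Of the 71 members, 20 passed the filter on low counts and were tested, with 17421 genes in all. At q under 0.01, 2 of the 20 differed between F1 and WT: 1 was higher, against 3.77% of all tested genes, and 1 lower, against 8.54% (12.3% in either direction). No member passed that threshold between F2 and WT, where 12% of all tested genes did, or between F2 and F1, where 0.740% did. The quasi-likelihood test and DESeq2 called none in these 2 comparisons either. By edgeR's exact test, 4, 7 and 7 members had an unadjusted p under 0.05 in F1 against WT, F2 against WT and F2 against F1, where 32.6%, 32.4% and 8.64% of all tested genes did. At q under 0.05 the members past the threshold were 3, 3 and 1, against 20.8%, 20.7% and 1.32% of all tested genes. The libraries of the groups compared did not overlap for 7, 12 and 11 of the 20, against 60.4%, 63.0% and 39.1% of all tested genes. The median log2 fold change of the 20 was -0.11 in F1 and -0.0068 in F2, compared with 0.0094 and -0.00035 over all tested genes. A member could pass the filter through a single group, so these medians do not describe all 71. The comparisons with WT share the 2 WT libraries.

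**Figure D2:**
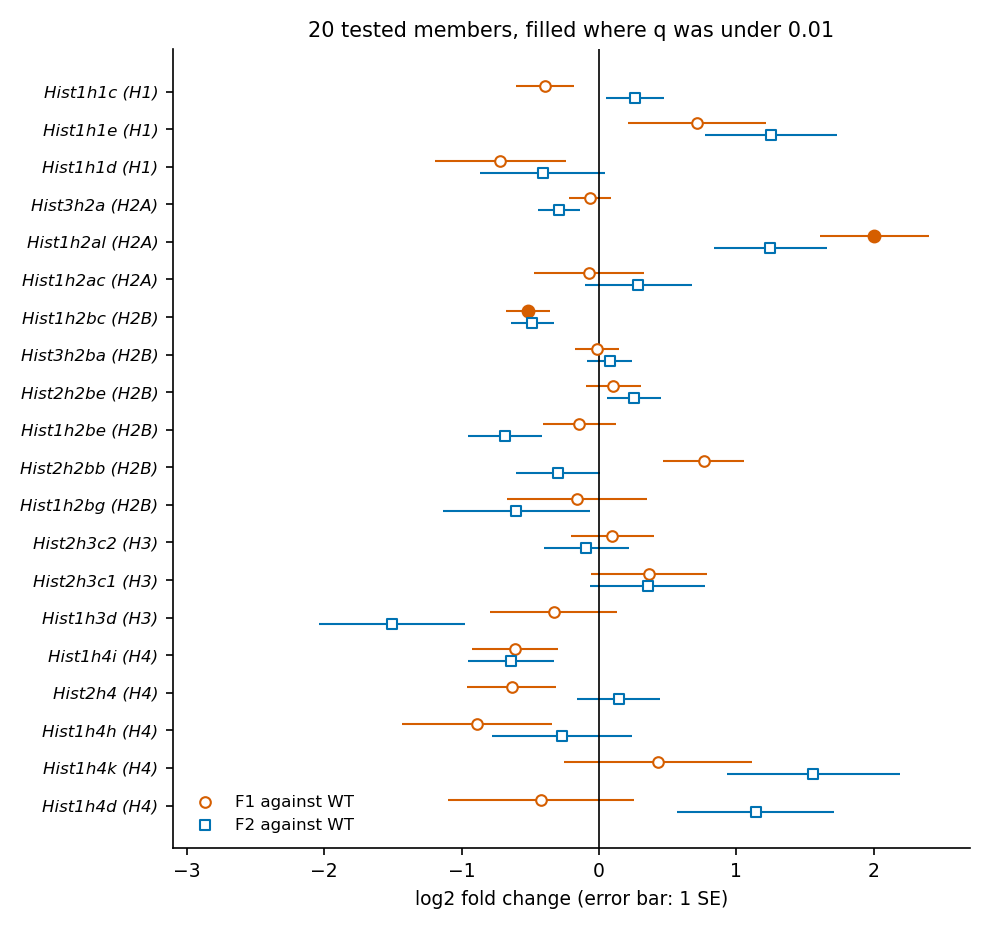
log2 fold change against WT (horizontal) of the 20 tested members, ordered by class and mean count, in F1 (circles) and F2 (squares). Bars are 1 SE and filled symbols have q under 0.01: Hist1h2al at 2.01 and Hist1h2bc at -0.52, both in F1.

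Among the H2B genes, Hist1h2bc was lower in the offspring of the 5HT1A-deficient line. It stood at 25.7 and 26.6 CPM in the WT libraries, 16.5 and 19.98 in F1, and 17.2 and 20.2 in F2. Every F1 and F2 library lay below both WT libraries, while F1 and F2 overlapped. The log2 fold change was -0.52 (SE 0.16, q = 0.0095) in F1, which passed the threshold, and -0.48 (SE 0.16, q = 0.018) in F2, which did not. Between F2 and F1 it was 0.035 (SE 0.16, q = 1). The F1 call was close to the threshold: it was lost with WT replicate 1, WT replicate 2, F1 replicate 1, F2 replicate 1 or F2 replicate 2 left out, with q up to 0.13, and under 7 of 12 other settings, the quasi-likelihood test, DESeq2 and RLE scaling among them. In F2, leaving out F1 replicate 1 or F1 replicate 2 brought it past the threshold.

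Hist3h2ba, the other abundant H2B gene, did not show such a difference. It had 16.7 and 20.6 CPM in WT, 19.2 and 17.7 in F1, and 19.8 and 19.6 in F2, with log2 fold changes of -0.015 (SE 0.16) and 0.078 (SE 0.16). Hist2h2be, whose exon of 2618 bases at chr3:96025044-96027661 is almost wholly unique, had 7.06 and 6.41 CPM in WT, 7.69 and 6.80 in F1, and 8.52 and 7.57 in F2 (log2 fold change 0.10, SE 0.20, and 0.26, SE 0.20). Neither gene passed the test in any comparison.

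Hist2h2bb, also on chromosome 3, lies at chr3:96073644-96082924 and has 2 exons. It had 3.82 and 2.15 CPM in WT, 4.72 and 5.47 in F1, and 2.88 and 2.01 in F2. Both F1 libraries were the highest, and F2 overlapped WT. The log2 fold change was 0.76 (SE 0.30, q = 0.048) in F1 and -1.06 (SE 0.30, q = 0.041) in F2 against F1, and neither passed 0.01. Without WT replicate 1, the F1 difference rose to 1.25 with q = 0.0092.

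Hist1h2be had 7.68 and 4.61 CPM in WT, 4.98 and 6.19 in F1, and 3.70 and 3.97 in F2. The F2 libraries were the lowest (log2 fold change -0.68, SE 0.27, q = 0.057), and without WT replicate 2 the F2 difference was -0.99 with q = 0.0051. Its exons overlap those of Gm11398, and reads shared by both may not have been assigned to either.

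**Figure D3:**
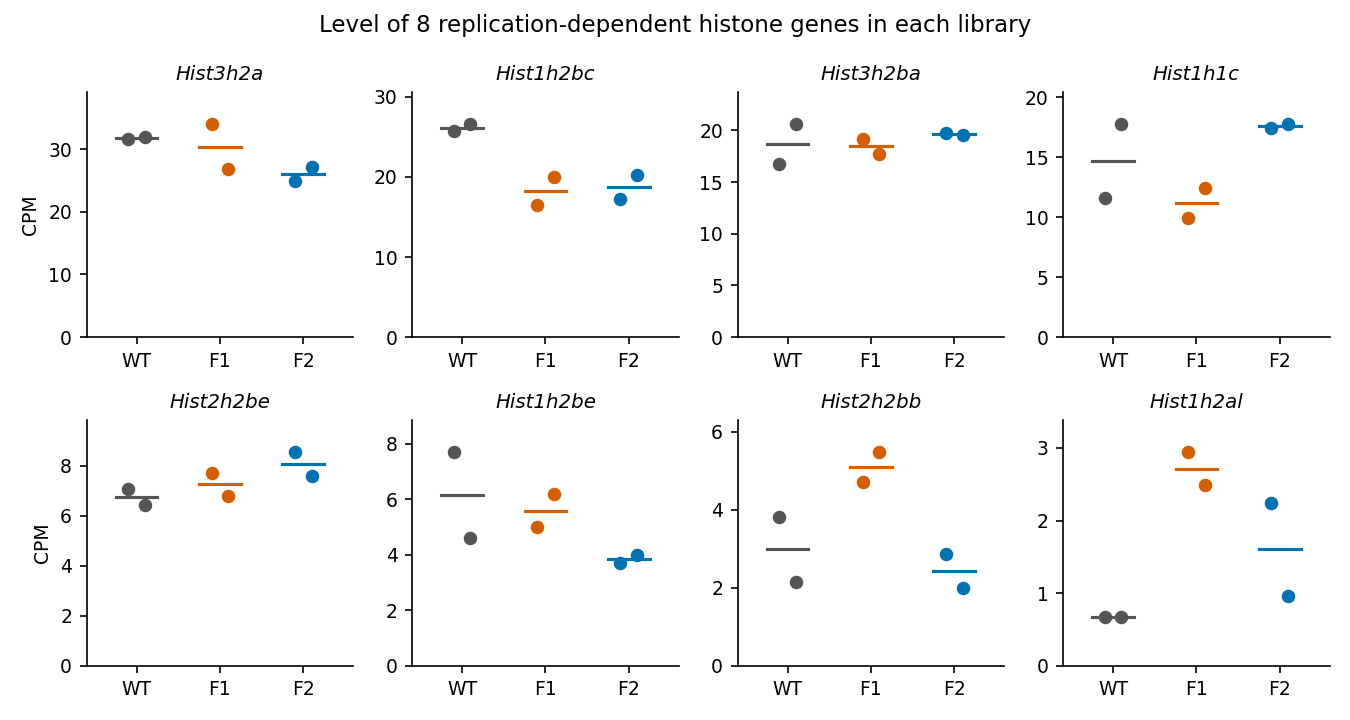
CPM in each library (points) and the group mean (lines) of Hist1h2al and of the 7 members that averaged at least 100 counts, on axes that start at 0. In Hist1h2bc both WT points stand above all F1 and F2 points, and in Hist1h2al both WT points stand below them.

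Among the H2A genes, Hist1h2al rose in F1. It had 0.677 and 0.669 CPM in WT (23 and 19 counts), 2.94 and 2.49 in F1 (89 and 77 counts), and 2.24 and 0.965 in F2 (60 and 26 counts). The WT libraries were close to each other and below all the rest, and the F2 libraries were far apart. The log2 fold change was 2.01 (SE 0.40, q = 1.14e-05) in F1 and 1.25 (SE 0.41, q = 0.021) in F2. Against F1, F2 differed by -0.76 (SE 0.36, q = 0.52). The F1 call held whichever library was left out, with log2 fold changes of 1.90 to 2.13 and q of at most 0.0054, and under all 11 other settings that tested the gene. The F2 difference was 0.52 without F2 replicate 1 and 1.74, with q = 0.00085, without F2 replicate 2.

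The gene model behind Hist1h2al is short. It covers 378 bases at chr13:51298057-51298434 on the - strand, coding sequence only, away from the other Hist1 genes of that chromosome, with no other annotated exon over it. Of its 329 windows, 94 (28.6%) were unique and the others occur elsewhere in the genome. Its counts therefore rest on a small share of the gene, and its level is uncertain. Reads that fit several places were not counted, and which genes share the other windows was not examined.

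Hist3h2a, the member with the most reads (872 mean counts), had 31.6 and 31.9 CPM in WT, 34.0 and 26.8 in F1, and 24.9 and 27.1 in F2. Its F2 libraries lay below WT (log2 fold change -0.29, SE 0.15, q = 0.18), and F1 overlapped WT (-0.064, SE 0.15, q = 0.83). Its exon at chr11:58768187-58770176 overlaps one of Trim17. Hist1h2ac had 0.860 to 1.74 CPM over all libraries, with F1 and F2 overlapping WT.

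Hist1h1c, the most read linker histone gene, had 11.6 and 17.8 CPM in WT, 9.90 and 12.4 in F1, and 17.5 and 17.7 in F2. The WT libraries spanned almost the whole range, and both F2 libraries were above both F1 libraries. The log2 fold change was -0.40 (SE 0.21, q = 0.18) in F1, 0.26 (SE 0.21, q = 0.42) in F2, and 0.66 (SE 0.21, q = 0.10) in F2 against F1. Hist1h1e had 8 to 24 counts per library and was higher in both F2 libraries (0.823 and 0.891 CPM) than in WT (0.235 and 0.493 CPM), with q = 0.062. Hist1h1d had 8 to 25 counts and did not pass the test either.

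H3 and H4 genes gave few reads. Hist2h3c2, annotated as a pseudogene, had 1.30 to 1.74 CPM in all 6 libraries, and Hist2h3c1 had 0.458 to 1.12 CPM and overlaps Hist2h2aa1 in its exons. Hist1h3d had 37 and 14 counts in WT, 15 and 24 in F1, and 8 and 7 in F2, so that both F2 libraries were the lowest (log2 fold change -1.51, SE 0.53, q = 0.031). Hist1h4i had 2.35 and 2.18 CPM in WT, 1.12 and 1.85 in F1, and 1.35 and 1.56 in F2. All F1 and F2 libraries lay below WT, with log2 fold changes of -0.61 (SE 0.31, q = 0.16) and -0.64 (SE 0.31, q = 0.14). Hist2h4 had 1.65 and 1.55 CPM in WT, 0.858 and 1.20 in F1, and 1.61 and 1.93 in F2, lowest in F1 (-0.63, SE 0.33, q = 0.15). Hist1h4h had 5 to 22 counts per library and likewise did not pass. By the exact test none of the 3 H3 and 5 H4 genes passed the threshold in any comparison, nor by the quasi-likelihood test or DESeq2, and unadjusted p was under 0.05 for 1 of them in F1, 3 in F2 and 3 in F2 against F1, to be read against the shares of all tested genes given above.

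Summed over all members, the level was 119 and 123 CPM in WT, 109 and 110 in F1, and 108 and 114 in F2. Both WT libraries were thus the highest. The H2B sum followed this order, with 62.4 and 61.3 CPM in WT, 53.8 and 57.4 in F1, and 52.8 and 54.3 in F2. The H1 sum was 12.7 and 18.9 CPM in WT, 10.6 and 13.9 in F1, and 19.1 and 19.3 in F2, highest in F2. Most of each sum came from a few genes, such as Hist1h2bc and Hist1h1c described above. The H2A sum spanned 28.4 to 38.4 CPM and the H3 sum 2.57 to 4.24 CPM.

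The H4 sum was 5.38 and 5.91 CPM in WT, 2.94 and 4.83 in F1, and 4.67 and 6.68 in F2. Other RNAs that lack a poly(A) tail, 8 small nucleolar and Cajal body RNAs of the files, summed to 4.56 and 4.89 CPM in WT, 2.48 and 2.10 in F1, and 2.36 and 4.01 in F2. Only 2 of them were tested, and 1, Scarna2, was lower in F1 (log2 fold change -1.18, SE 0.35, q = 0.0067), where 8.54% of all tested genes were. That call was lost by the quasi-likelihood test (q = 0.034) and by DESeq2 (q = 0.040), and in 3 of the 6 fits that left out a library. Of uniquely aligned reads, the share assigned to no gene's exons was 17.7% and 20.7% in WT, 13.8% and 12.2% in F1, and 13.9% and 17.4% in F2. The part of poly(A) selection in the histone values was not tested.

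**Figure D4:**
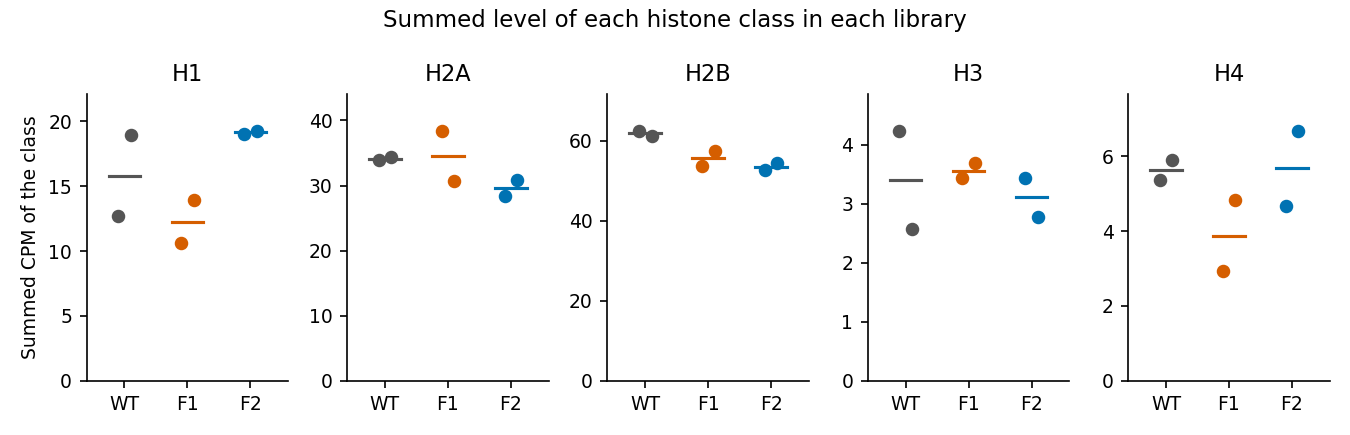
Summed CPM of the members of each class in each library (points) with the group mean (lines), on axes that start at 0. In H2B both WT libraries stand above the others, in H1 both F2 libraries are the highest, and in H4 the lowest library, at 2.94 CPM, is from F1.

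The 51 members that were not tested had 53 to 90 counts together in each library, or 1.75 to 3.34 CPM. The sum was 2.47 and 2.499 CPM in WT, 1.75 and 2.10 in F1, and 2.09 and 3.34 in F2. Only the F1 libraries lay on one side of WT, and no single member of these exceeded 10 counts in a library. With no filter, 57 members were tested and no further one was called in any comparison, so differences in these genes were not detectable at this depth.

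Variant histones, mostly replication-independent and with mRNAs that mostly carry a poly(A) tail, were listed for comparison. H2afx is among them, although the stem-loop search above matched it. Of 11 tested, 1 passed the threshold, H1f0 in F2, where 12% of all tested genes did. H3f3b and H3f3a encode H3.3, which is deposited outside S phase, and had 250 to 315 CPM and 71.7 to 85.6 CPM. H2afz, the H2A variant of promoter nucleosomes, had 36.7 to 41.7 CPM. H2afx had 32.3 and 33.2 CPM in WT, 36.4 and 33.8 in F1, and 38.0 and 37.1 in F2 (q = 0.63 and 0.29). H1f0, the linker histone of differentiated cells, had 32.2 and 37.9 CPM in WT, 42.6 and 47.7 in F1, and 55.6 and 51.4 in F2. All F2 libraries of H1f0 were above all F1 libraries, and those above WT. It rose in F2 by a log2 fold change of 0.61 (SE 0.13, q = 0.000143), and the F1 difference was 0.37 (SE 0.13, q = 0.037). The F2 call held in 4 of the 6 fits without a library.

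Of 20 tested genes for histone mRNA transcription, 3′ end processing and decay, 1 rose and 2 fell in F1, and 3 fell in F2. In these comparisons 12.3% and 12% of all tested genes passed the threshold in either direction. Npat, the coactivator at histone loci, had 22.2 to 26.1 CPM and Slbp had 23.1 to 31.3 CPM, with no difference past the threshold. Casp8ap2, needed for histone transcription, had 13.8 and 14.0 CPM in WT, 16.04 and 19.1 in F1, and 18.8 and 16.5 in F2 (q = 0.14 in both). All its F1 and F2 libraries were above WT.

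Lsm11, a protein of the U7 snRNP, had 29.1 and 22.5 CPM in WT, 47.0 and 48.0 in F1, and 18.7 and 25.2 in F2. The F1 libraries stood apart from the other 4 (log2 fold change 0.88, SE 0.17, q = 8.75e-06), and F2 overlapped WT (-0.23, SE 0.17, q = 0.37). Srrt, which links capped RNAs to processing and decay, fell from 240 and 194 CPM in WT to 117 and 110 in F1 and 103 and 110 in F2, by log2 fold changes of -0.94 (SE 0.13, q = 6.76e-11) and -1.03 (SE 0.13, q = 6.2e-13). Gon4l fell in both (-0.66, SE 0.14, q = 8.38e-05 and -0.51, SE 0.14, q = 0.0039). Upf1, a helicase of histone mRNA decay, fell in F2 (-0.50, SE 0.13, q = 0.0021), with -0.38 (q = 0.027) in F1. The quasi-likelihood test lost the F2 calls of Gon4l (q = 0.021) and Upf1 (q = 0.015). The F1 and F2 calls of Srrt and the F1 call of Lsm11 held with each library left out, while those of Gon4l held in 4 of 6 such fits in F1 and 2 in F2, and that of Upf1 in 3.

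Of 20 histone chaperones tested, 1 fell in F1 and 3 fell in F2. The shares of all tested genes past the threshold in either direction were 12.3% and 12%. Ubn2, a subunit of the H3.3 chaperone complex, fell in both (log2 fold change -0.48, SE 0.12, q = 0.0016 and -0.43, SE 0.12, q = 0.0049). Nasp, which binds H3 and H4 before their deposition, fell in F2 from 42.6 and 33.4 CPM in WT to 25.9 and 27.1 (-0.52, SE 0.15, q = 0.0061), with -0.40 (q = 0.044) in F1. Cabin1, of the same complex as Ubn2, also fell in F2 (-0.40, SE 0.12, q = 0.0075), with a like value of -0.38 (q = 0.0104) in F1 that just missed the threshold. None of these 4 calls held in all 6 fits without a library, nor by the quasi-likelihood test.

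Of 24 tested genes of S phase and proliferation, 1 rose and 1 fell in F1, and 2 rose in F2. These counts, too, stand against 12.3% and 12% of all tested genes in either direction. Mki67 and Top2a, which mark dividing cells, were low at 3.34 to 5.88 CPM and 1.32 to 2.43 CPM, and the replication clamp Pcna had 36.5 to 43.8 CPM, with no difference past the threshold in any. Mcm6, of the replicative helicase, rose from 9.82 and 8.45 CPM in WT to 19.5 and 19.4 in F1 and 19.6 and 11.7 in F2 (log2 fold change 1.09, SE 0.22, q = 3.01e-05 and 0.77, SE 0.22, q = 0.0056). Rrm1, of ribonucleotide reductase, rose in F2 (0.59, SE 0.18, q = 0.0078), and Birc5, the mitotic survivin, fell in F1 (-1.11, SE 0.33, q = 0.0066), with -0.89 (q = 0.036) in F2. The quasi-likelihood test lost the F2 calls of Rrm1 (q = 0.023) and Mcm6 (q = 0.029), and DESeq2 lost that of Rrm1 (q = 0.012). The Birc5 call was lost by the quasi-likelihood test (q = 0.034) and DESeq2 (q = 0.053), and its F1 value was -1.68 to -0.68 with a library left out. Only the F1 call of Mcm6 held whichever library was left out. The F2 calls of Mcm6 and Rrm1 held in 3 and 2 of 6 such fits, and that of Birc5 in 1.

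All 8 granule cell markers were expressed in every library. They summed to 986 and 957 CPM in WT, 829 and 1021 in F1, and 1169 and 1105 in F2. Only Trpc6 passed the threshold, lower in F1 (log2 fold change -0.998, q = 4.92e-09) and in F2 (-0.71, q = 7.23e-05). Of the 8, 4 had a log2 fold change above 0 in F1 and 7 in F2. By the exact test 3 and 7 of them had an unadjusted p under 0.05. Some markers of other cells were higher in F1 and F2. The 13 oligodendrocyte markers summed to 1169 and 2109 CPM in WT, 3164 and 2381 in F1, and 1646 and 3082 in F2, and 4 were higher in F1 and 2 in F2. Of 8 astrocyte markers 1 and 5 were higher, of 7 microglial markers 0 and 5, of 6 endothelial markers 0 and 1, and of 6 interneuron markers 1 and 2 in F1 and F2. Among all 17421 tested genes, 657 were higher in F1 and 673 in F2. No marker of CA and mossy cells or of progenitors and immature neurons passed the exact test, and 2 of 6 and 1 of 8 had an unadjusted p under 0.05 in each comparison with WT. Among all tested genes, 32.6% had such a p in F1 and 32.4% in F2. No marker was at 0. The part of cell composition in the histone values was not tested, and in such tissue fewer cells of a type and less RNA per cell cannot be told apart.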

How the data were processed

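Read counts per gene of the 6 libraries were used as the authors deposited them, without normalization. The authors aligned single-end reads of 50 bases to mm9 with TopHat (TopHat2 2.0.2 and Bowtie 1.0.0 in the submitters' processing notes) without new junctions. They counted with HTSeq in its intersection-strict mode, which leaves out reads that reach outside exons. Reads that fit several places were left out separately, as not uniquely aligned. The annotation release and the strand setting are not given in the sources used here. Between 25.1% and 33.2% of alignments were not unique, a class that bears on gene families such as histones. Libraries were grouped by their labels.

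Counts were filtered with filterByExpr, scaled by TMM, and tested by edgeR 4.0.16 (R 4.3.3) with its exact test, common and tagwise dispersion coming from all 6 libraries. q is the Benjamini-Hochberg adjusted p over all 17421 genes tested, with a threshold of 0.01. Standard errors follow from the counts and the tagwise dispersion. CPM uses the TMM-scaled library size. The procedure was tested on simulated data. Gene models were those of GENCODE M1 on NCBIM37, which held 70 of the 71 members, and windows were compared without mismatches. Alternatives were other tests (quasi-likelihood, likelihood-ratio, DESeq2 1.42.0), scalings, filters, dispersion, the replicate number as a block, and each library left out.

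Named members are those past the threshold against WT, those with at least 100 mean counts and the 3 highest per class. From the lists come fixed key genes and at most 4 with the smallest q. The members, the limit of 100 bases and the lists were chosen with earlier results of these data known, and other members named were picked after their values were seen. Of the listed genes, 12 symbols, with Rmrp, Rpph1 and Rn7sk among them, were not analysed here. The bisulfite libraries were not used here.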

Additional observations from a re-analysis of the deposited data

Results flagged for a closer look

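The difference between the generations was past the threshold for 1 gene of the histone and related lists, Lsm11. Its log2 fold change in F2 against F1 was -1.11 (SE 0.17, q = 1.36e-07 by edgeR's exact test), with both F2 libraries below both F1 libraries. It kept its side of the threshold with each of the 6 libraries left out (-1.34 to -0.91) but had q = 0.020 by the quasi-likelihood test. Among all tested genes 129 (0.740%) differed in this comparison, and no replication-dependent histone gene did.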

How the results depend on the processing

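The count of members called in F1 against WT, 2 as reported, was 1 under the quasi-likelihood test, DESeq2, RLE scaling, no filter and dispersion from the groups compared (Hist1h2al each time), and under the filter on a mean of at least 50 counts (Hist1h2bc, since Hist1h2al averages 49). With the replicate block it was 1 by both the likelihood-ratio and the quasi-likelihood test. In F2 against WT, 1 member (Hist1h2bc) was called with dispersion from the groups compared. At q under 0.05, 3 members were called in F1, 3 in F2 and 1 in F2 against F1. Leaving out 1 library gave 1 to 2 in F1, 0 to 1 in F2 and 0 in F2 against F1. For Hist1h2bc in F1, q ranged from 0.0047 to 0.030 over 12 other settings, 5 of which kept the call. Of the named members' fold changes under the alternatives, 845 kept their direction and side of the threshold, 12 no longer passed it, 6 newly passed it, and 28 that were not called changed sign. No call changed its direction.

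Over all genes, the quasi-likelihood test called 1029 in F1, 997 in F2 and 2 in F2 against F1, and with the replicate block 848, 758 and 9, compared with 2144, 2084 and 129. Replicate numbers did not pair the libraries: the deviations of same-numbered libraries correlated at -0.0086 (WT and F1), -0.090 (WT and F2) and -0.23 (F1 and F2). With the replicate block and the F2 numbers crossed, added after the data were seen, 2 members were called in F1 and 0 in F2 (2679, 2752 and 233 genes in all). Of the 51 untested members, 16 had under 25% unique windows (6 have none). All 51 had low counts, and the part of unique sequence in this was not tested. The tested members are limited by 2 libraries per group.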
